A study of Homo sapiens with 6 samples.

Results

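The 10 genes described here are regulators of apoptosis of the BCL2 family: BCL2, BCL2L1, MCL1, BCL2L2, BAK1, BCL2L11, BAD, BID, BIK and PMAIP1. They were chosen by gene name, all 10 were among the 32029 genes of the deposited read counts, and all 10 were among the 14996 genes kept by the filter on low counts. The RNA came from SW480, an established line of human colorectal adenocarcinoma cells, 48 h after transfection with a negative control siRNA (siNC, 3 cultures, genotype labelled WT) or an siRNA against ZEB1 (siZEB1, 3 cultures, labelled ZEB1 knockdown). No other treatment is given for either group, and both groups are cultures of 1 cell line. Each culture had between 19040636 and 22357633 counted reads.

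BCL2 family proteins set the threshold for apoptosis at the outer mitochondrial membrane. Effectors such as BAK1 and BAX form pores that release cytochrome c, anti-apoptotic members such as BCL2, BCL2L1 (BCL-XL), MCL1 and BCL2L2 (BCL-W) hold effectors and activators in check, and BH3-only proteins such as BCL2L11 (BIM), BID, BAD, BIK and PMAIP1 (NOXA) sense stress and either activate effectors or block the anti-apoptotic members. In colorectal tumours BCL-XL is a well-known survival factor. ZEB1, the factor depleted here, is a zinc finger repressor of epithelial genes that binds E-box sequences.

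ZEB1 had 1247, 1276 and 908 reads in the siNC cultures and 136, 132 and 162 in the siZEB1 cultures, so the knockdown was present in each labelled culture. Of the epithelial markers, KRT8 and KRT18 had at least 25333 reads in every culture, while KRT20 had between 2 and 20 and CEACAM5 had 1 read in all 6 together. Of the markers of other cells, COL1A1 had 143 to 227 reads, PECAM1 24 to 35, and COL1A2, COL3A1 and ALB no more than 5 in any culture. PTPRC and DCN were not found by name among the 32029 genes, so these 2 markers could not be assessed. EPCAM (log2 fold change 3.05), KRT19 (1.62) and VIL1 (2.34) rose and CDX2 (-1.30) fell with siZEB1, and the part of this shift in the values below was not tested. Levels below are CPM (read counts scaled to a common library size by TMM), and fold changes are log2 of siZEB1 over siNC with the standard error (SE) from edgeR's quasi-likelihood test, called at a Benjamini-Hochberg adjusted p-value under 0.05 over the 14996 genes.

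With ZEB1 knockdown, BCL2L1, BIK and MCL1 rose and BID fell, while the other 6 members were not called. In bulk RNA, a change in the number of cells that express a gene and a change in RNA per cell cannot be told apart. The 4 calls of 10 compare with 40.2% of all genes tested that were called in either direction. Split by direction, 3 members were higher, against 19% of all genes, and 1 was lower, against 21.2%. The members' median log2 fold change was 0.14, beside -0.0055 for all genes tested, and their range was -0.76 to 0.51. CPM values of the groups did not overlap at 7 of the 10, where 49.5% of all genes did not overlap. At a fold change above 1.5 with an unadjusted p-value under 0.05, an alternative threshold, BID was the 1 member called, beside 16.6% of all genes, with 0 members higher (7.21% of all genes) and 1 lower (9.35%). As a family, the members were thus called about as often as other genes, and the results below concern single genes.

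**Figure D1:**
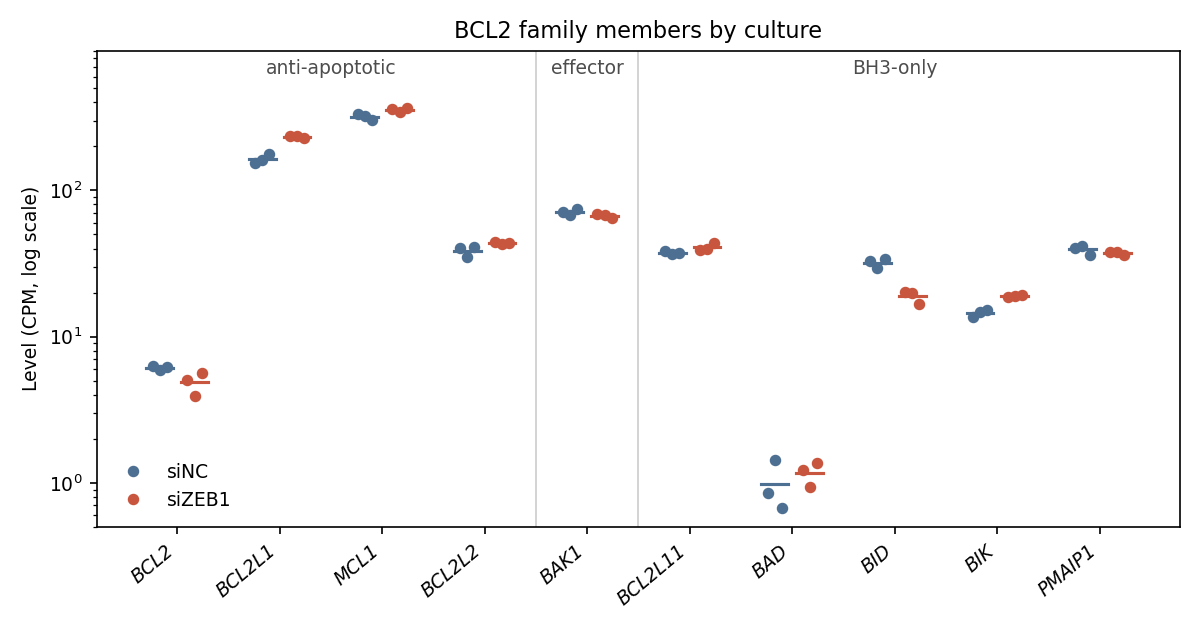
CPM (log axis) of each of the 10 members in the 3 siNC and 3 siZEB1 cultures, with points for cultures and lines for group means, ordered by role. BCL2L1, BIK, MCL1, BCL2L2 and BCL2L11 lie higher and BID and BCL2 lie lower in all siZEB1 cultures, although BCL2L2, BCL2L11 and BCL2 were not called. BAD sits near 1 CPM.

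BCL2L1 encodes BCL-XL and, by alternative splicing, the shorter pro-apoptotic BCL-XS, which a count per gene does not separate. It lies on the minus strand of chromosome 20 from 31664452 to 31723989 (GRCh38, GENCODE 29). Its level was 153, 161 and 177 CPM with siNC and 234, 235 and 228 CPM with siZEB1. All siZEB1 cultures lay above all siNC cultures, and the group means were 164 ± 12.2 and 233 ± 3.83 CPM (SD, n = 3 each). The log2 fold change was 0.51 (SE 0.063, adjusted p = 6.42e-06), or 1.42-fold with a 95% confidence interval of 1.30 to 1.56. The exon of the antisense gene ABALON covers 42.97% of the BCL2L1 exon sequence, and whether counting used the strand is not given in the sources used here. ABALON itself had 34 to 62 reads per culture, against 3251 to 4526 for BCL2L1. BCL2L1 exons in turn cover 74.83% of the ABALON exon, and the part of the overlap in the BCL2L1 count was not tested.

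MCL1, a short-lived protein that binds BIM, NOXA and BAK1, was the most abundant member by CPM. The gene lies on chromosome 1 from 150574551 to 150579738. Its level was 333, 321 and 302 CPM with siNC and 358, 341 and 368 CPM with siZEB1. The siZEB1 cultures were all higher, but the gap between the nearest cultures was small relative to the spread, with means of 319 ± 15.8 and 355 ± 13.6 CPM (SD, n = 3 each). The log2 fold change was 0.16 (SE 0.057, adjusted p = 0.0364). Leaving out single cultures removed this call in 4 of 6 cases, with adjusted p-values of 0.0902 without siNC replicate 2, 0.111 without siNC replicate 3, 0.118 without siZEB1 replicate 1 and 0.0986 without siZEB1 replicate 3. It was also lost without the filter on low counts (adjusted p = 0.0621) and with replicate number as a block (adjusted p = 0.137), and its adjusted p-values spanned 0.0264 to 0.137 across alternatives.

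BCL2L2 (chromosome 14 from 23298790 to 23311759) and BCL2 (chromosome 18 from 63123346 to 63320128) were not called, although their groups did not overlap. BCL2L2 was at 40.2, 34.8 and 41.0 CPM with siNC and 44.5, 43.2 and 43.4 CPM with siZEB1, a log2 fold change of 0.18 (95% interval 0.01 to 0.34, adjusted p = 0.0805). It reached an adjusted p-value of 0.0323 without siNC replicate 3, and was at 0.379 without siNC replicate 2. The readthrough gene BCL2L2-PABPN1 shares 19.41% of the exonic bases of BCL2L2 and had 5 to 11 reads per culture.
BCL2, the founding member, was scarce, with 133, 132 and 120 reads in the siNC cultures and 96, 75 and 108 in the siZEB1 cultures. Its level was 6.25, 5.89 and 6.22 CPM with siNC and 5.09, 3.90 and 5.64 CPM with siZEB1, a log2 fold change of -0.33 (95% interval -0.65 to -0.01, adjusted p = 0.093). Without siZEB1 replicate 3, its log2 fold change was -0.45 and the adjusted p-value was 0.0409, and without siZEB1 replicate 2 they were -0.19 and 0.366. Of the 4 anti-apoptotic members, 2 were called higher (19% of all genes were), 1 of them MCL1 with the unstable call above, and 2 were not called.

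BAK1, the single effector among the members (chromosome 6 from 33572547 to 33580293), was at 71.2, 68.2 and 74.8 CPM with siNC and 68.6, 67.9 and 64.6 CPM with siZEB1. The groups overlapped, and the log2 fold change was -0.09 with a 95% interval of -0.23 to 0.05 (adjusted p = 0.302). Its processed pseudogenes BAK1P1 and BAK1P2 had 98 and 5 reads in all 6 cultures together, against at least 1236 for BAK1 in each.
The other effectors moved in opposite directions. BAX rose from 65.7, 69.6 and 77.3 CPM to 89.6, 90.2 and 78.0 CPM, for a log2 change of 0.28 (SE 0.078, adjusted p = 0.00857). The highest siNC culture and the lowest siZEB1 culture nearly met, and without siZEB1 replicate 1 the BAX call was lost (adjusted p = 0.0532, the highest over its alternatives, of which the lowest was 0.00041). BOK, an effector-like relative, fell from 17.6, 20.1 and 21.6 CPM to 9.11, 8.16 and 9.09 CPM, for a log2 change of -1.17 (SE 0.11, adjusted p = 1.85e-07), which was the largest absolute change among the 19 family genes tested.

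BID, which caspase-8 cleaves to carry death receptor signals to mitochondria, was the member with the largest change. It lies on the minus strand of chromosome 22 from 17734138 to 17774770, and none of its exonic bases is shared with another annotated gene. BID had 695, 654 and 658 reads in the siNC cultures and 383, 381 and 319 in the siZEB1 cultures, or 32.7, 29.2 and 34.1 CPM and 20.3, 19.8 and 16.7 CPM. Every siZEB1 culture lay well below every siNC culture, with means of 32.0 ± 2.53 and 18.9 ± 1.97 CPM (SD, n = 3 each). The log2 fold change was -0.76 (SE 0.094, adjusted p = 6.52e-06), and with each culture left out in turn it stayed between -0.82 and -0.67. Its absolute change exceeded that of 88.4% of the genes tested.

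BIK, a BH3-only protein of the endoplasmic reticulum (chromosome 22 from 43110748 to 43129712), went the other way. It was at 13.6, 14.8 and 15.1 CPM with siNC and 18.6, 19.1 and 19.3 CPM with siZEB1. The groups were clearly apart, with means of 14.5 ± 0.793 and 19.004 ± 0.325 CPM (SD, n = 3 each) for a log2 change of 0.39 (SE 0.089, adjusted p = 0.00194). The call held in all 6 fits that left out a culture.

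BCL2L11, PMAIP1 and BAD were not called. BCL2L11, the activator BIM (chromosome 2 from 111119378 to 111168447), was at 38.2, 36.5 and 37.3 CPM with siNC and 39.4, 39.7 and 43.6 CPM with siZEB1. The siZEB1 cultures were higher by a narrow margin, at a log2 fold change of 0.13 (95% interval -0.03 to 0.29, adjusted p = 0.173). Exons on the other strand cover 10.92% of the BCL2L11 exon sequence. PMAIP1, a p53 target that neutralizes MCL1 (chromosome 18 from 59899948 to 59904306), was at 40.4, 41.6 and 36.2 CPM and 37.7, 38.1 and 36.2 CPM. These groups overlapped, and the log2 fold change was -0.08 (95% interval -0.24 to 0.08, adjusted p = 0.43). BAD, which binds BCL-XL when dephosphorylated (chromosome 11 from 64269830 to 64284704), had 18, 32 and 13 reads with siNC and 23, 18 and 26 with siZEB1. At this depth its log2 fold change of 0.23 had a 95% interval from -0.46 to 0.92, so neither direction could be told. GPR137, encoded opposite, has exons over 23.65% of the BAD exon sequence, and GPR137 had 575 to 715 reads per culture.
Among the BH3-only genes outside the 10 members, BBC3 (PUMA) rose from 5.31, 3.48 and 4.25 CPM to 7.84, 5.56 and 5.64 CPM, for a log2 change of 0.55 (SE 0.18, adjusted p = 0.0209). Its call rests on 78 to 148 reads per culture and was lost without siZEB1 replicate 1 (adjusted p = 0.152) and without siNC replicate 2 (adjusted p = 0.114), while the lowest value over its alternatives was 0.00427. HRK, at 1.56 to 1.83 CPM with siNC and 2.12 to 2.82 CPM with siZEB1, was not called (log2 fold change 0.55, adjusted p = 0.0514, 0.0419 to 0.177 over its alternatives). BMF, at 11.1 to 12.2 CPM and 9.75 to 10.8 CPM, was not called either (log2 fold change -0.20, adjusted p = 0.126).

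**Figure D2:**
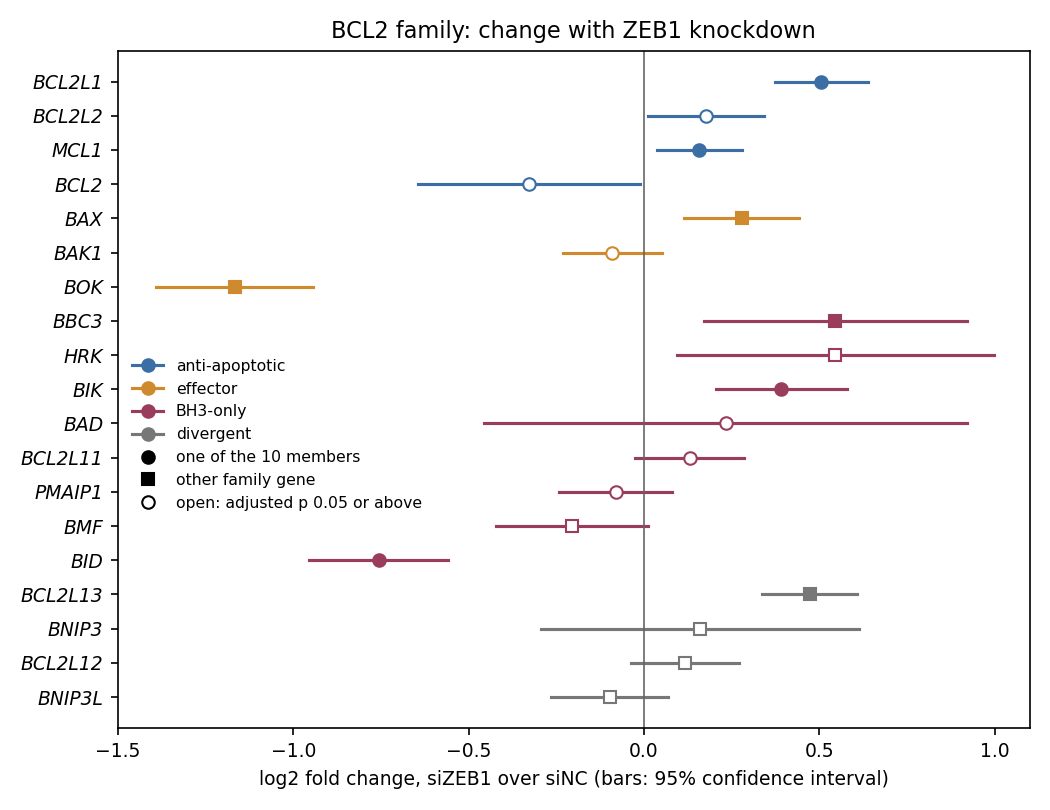
Log2 fold change of siZEB1 over siNC with its 95% confidence interval for the 19 family genes tested, grouped by role, with circles for the 10 members, squares for other family genes and filled symbols for adjusted p-values under 0.05. Each role holds genes on both sides of 0, from BOK at -1.17 to BBC3 and HRK at 0.55.

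Of the 12 other family genes, 9 were tested, and 3 rose (BAX, BBC3 and BCL2L13) and 1 fell (BOK), with a median log2 fold change of 0.16. The 4 calls made up 44.4% of the 9, near the 40.2% of all genes. BCL2L13, a divergent mitochondrial member, rose from 68.9, 69.8 and 67.5 CPM to 93.3, 92.7 and 100.1 CPM, for a log2 change of 0.47 (SE 0.064, adjusted p = 1.76e-05). BCL2L12 (0.12), BNIP3 (0.16) and BNIP3L (-0.10) were not called. The BNIP3 genes encode mitophagy receptors. For BCL2L12, 33.12% of the exon sequence lies under exons on the other strand. BCL2A1, BCL2L10 and BCL2L14 had no more than 5 reads in any culture and were not tested.

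The sequence upstream of BID and of BCL2L1 is shown because these are the members with the largest fall and the largest rise. Each stretch runs 5′ to 3′ on the gene's own strand up to the outermost start of the gene in GENCODE 29, and comes from RefSeq's promoter windows on GRCh38.p14. Capitals mark E-boxes (CANNTG).
BID, chr22:17774771-17774915, minus strand: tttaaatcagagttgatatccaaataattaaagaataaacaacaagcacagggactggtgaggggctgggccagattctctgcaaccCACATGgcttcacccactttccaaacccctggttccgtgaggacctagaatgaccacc
BCL2L1, chr20:31723990-31724213, minus strand: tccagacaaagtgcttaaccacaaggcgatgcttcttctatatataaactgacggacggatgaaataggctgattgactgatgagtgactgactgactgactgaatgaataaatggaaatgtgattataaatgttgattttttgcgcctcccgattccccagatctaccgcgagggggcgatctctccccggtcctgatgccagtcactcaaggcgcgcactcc
The BID stretch of 145 bases holds 1 E-box and the BCL2L1 stretch of 224 bases holds 0. CACCTG, the E-box form that ZEB1 is known to bind, was searched on both strands (CAGGTG on the other) in the 250 bases before each listed start, and was found in 0 of 13 windows of 7 members, BAD, BAK1, BCL2, BCL2L1, BCL2L11, BID and PMAIP1. Of all 35116 promoter windows of that length, 17.49% held it. CANNTG, which includes CACCTG, was found in 4 of the 13 windows (1 of BAD and 3 of BID), where 61.82% of all windows held it. Several windows of a gene overlap, and MCL1, BCL2L2 and BIK were not in the table of windows.

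Levels of different genes were compared as CPM per kb of exon, with the exonic bases of GENCODE 29 as the length. In siNC cultures the order was MCL1 (72.9 ± 3.62 CPM per kb), BCL2L1 (49.4 ± 3.70), BAK1 (32.3 ± 1.48), PMAIP1 (17.6 ± 1.27), BIK (15.2 ± 0.832), BCL2L2 (9.23 ± 0.81), BID (7.20 ± 0.57), BCL2L11 (5.61 ± 0.128), BAD (0.576 ± 0.232) and BCL2 (0.521 ± 0.017), each a mean with its SD over 3 cultures. BAD and BCL2 overlapped, and no other neighbours in this order did. Overlap here covers only the spread between cultures. The part in this order of the length used and of exons that overlap other genes was not tested. In siZEB1 cultures the order changed at 2 places. BIK (19.9 ± 0.341 CPM per kb) stood above PMAIP1 (16.7 ± 0.451), and BCL2L11 (6.14 ± 0.351) stood above BID (4.26 ± 0.443), with no overlap between neighbours.

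The summed level of the 4 anti-apoptotic members was 132 ± 0.970 CPM per kb with siNC and 162 ± 2.36 CPM per kb with siZEB1, while that of the 6 others, BAK1 and the BH3-only genes, was 78.5 ± 0.891 and 78.0 ± 1.15 CPM per kb (SD, n = 3 each). The anti-apoptotic members made up 62.9%, 62.7% and 62.5% of the total of the 10 in the siNC cultures and 67.5%, 67.0% and 68.1% in the siZEB1 cultures, with no overlap. BCL2L1 alone made up 37.4 ± 2.71% of the anti-apoptotic sum with siNC and 43.2 ± 1.23% with siZEB1, and MCL1 55.2 ± 2.87% and 50.1 ± 1.26%. Per kb, BCL2L1 was at 6.28, 7.42 and 6.96 times the level of BID in the siNC cultures. In the siZEB1 cultures it was at 15.5, 15.9 and 18.4 times that level. This pair joins the members with the largest rise and the largest fall, so the shift in their ratio follows from those changes. These sums are descriptions of mRNA over the 10 genes listed, which leave out BAX, and no test was run on them.

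**Figure D3:**
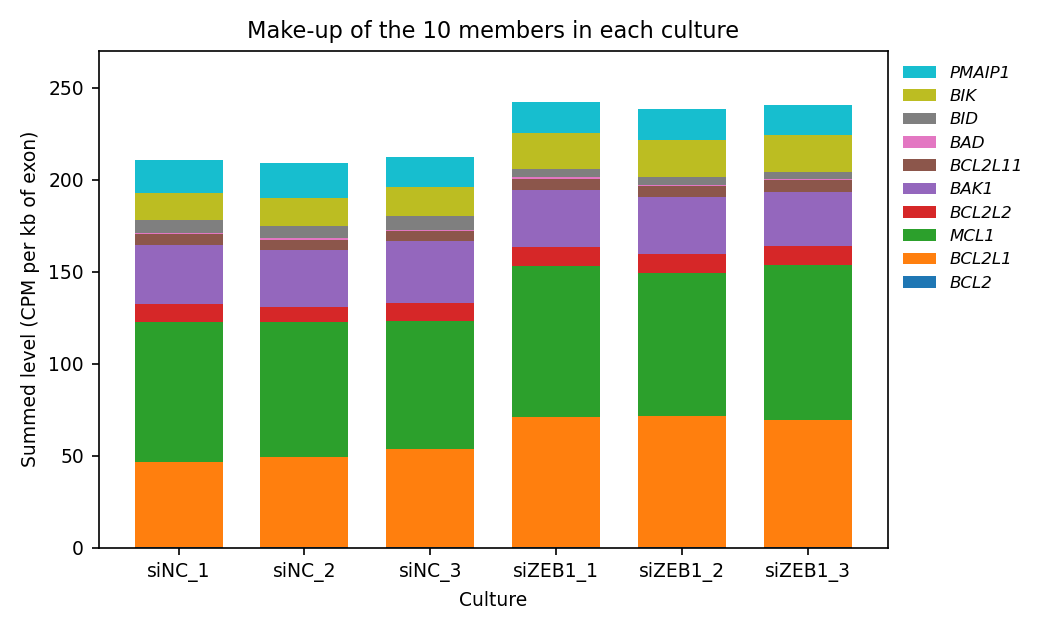
Summed level of the 10 members in each of the 6 cultures, in CPM per kb of exon, with 1 colour per gene. The total is near 210.6 in the siNC cultures and 240.4 in the siZEB1 cultures, and the BCL2L1 and MCL1 blocks account for most of the added height.

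The partners of the family were described through 6 lists of 55 genes, of which 48 were tested, with 13 higher and 14 lower and a median log2 fold change of -0.06. These lists were chosen by function, with earlier results of these data known. Calls among them are set beside the 19% and 21.2% of all genes as a description only. Of 9 mitochondrial factors tested, 1 rose and 2 fell (median -0.07). CYCS, cytochrome c, rose from 431 ± 31.3 to 544 ± 6.53 CPM (log2 fold change 0.33, SE 0.058, adjusted p = 0.000187). VDAC3, an outer membrane channel, fell from 104, 98.2 and 98.8 CPM to 52.4, 51.0 and 49.3 CPM (log2 fold change -0.98, SE 0.065, adjusted p = 4.64e-09), and the protease HTRA2 fell by 0.69 on the log2 scale. Opposite-strand exons cover 36.92% of the HTRA2 exon sequence.

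Of the 6 caspases tested, 2 rose and 0 fell, at a median log2 fold change of 0.11. In edgeR's test 1 was lower at an unadjusted p-value under 0.05, CASP2, named after its values were seen (log2 fold change -0.15, adjusted p = 0.0641), and DESeq2 called 0 lower. CASP8, the initiator that cleaves BID, rose from 6.44, 6.83 and 7.73 CPM to 10.2, 9.36 and 10.97 CPM (log2 fold change 0.54, SE 0.12, adjusted p = 0.00154).

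Of the 5 inhibitor of apoptosis genes tested, 1 rose and 2 fell (median -0.17). BIRC5, survivin, which also serves chromosome segregation, rose from 133 ± 6.35 to 217 ± 7.999 CPM (log2 fold change 0.70, SE 0.061, adjusted p = 1.04e-07). XIAP, the direct caspase inhibitor, was at 82.3, 68.1 and 67.6 CPM with siNC and 44.7, 48.5 and 57.6 CPM with siZEB1, for a log2 change of -0.53 (SE 0.095, adjusted p = 0.000253). BIRC3 fell by 1.14 on the log2 scale from 7.71 ± 0.636 CPM.

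Of the 9 death receptor genes tested, 3 rose and 1 fell (median 0.05). The TRAIL receptor TNFRSF10B rose from 166 ± 4.47 to 227 ± 3.49 CPM (log2 fold change 0.45, adjusted p = 7.11e-06), and the decoy receptor TNFRSF10D (0.42) and the TNF receptor TNFRSF1A (0.31) rose with it. The adaptor FADD fell by 0.50 (adjusted p = 0.000619), and opposite-strand exons cover 54.92% of its exon sequence.

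Of the 6 ubiquitin ligases and deubiquitinases tested, 1 rose and 3 fell (median -0.21). MARCHF5, a mitochondrial ligase that acts on MCL1, rose from 85.8 ± 2.24 to 115 ± 3.72 CPM (log2 fold change 0.43, adjusted p = 3.46e-05). BTRC fell from 59.5 ± 3.41 to 34.3 ± 1.49 CPM (log2 fold change -0.80, adjusted p = 2.27e-07). HUWE1 and USP13, a ligase and a deubiquitinase of MCL1, fell by 0.26 each on the log2 scale, with adjusted p-values of 0.00363 and 0.0153. The USP13 call was lost without siNC replicate 2 (adjusted p = 0.115) and without siZEB1 replicate 2 (adjusted p = 0.055), and with replicate number as a block (adjusted p = 0.0547), and the lowest adjusted p-value over its alternatives was 0.00149.

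Of 13 transcription factors known to drive family genes, 5 rose and 6 fell (median -0.16). The 3 FOXO factors, which are known to induce BCL2L11, fell by similar amounts: FOXO3 from 120 ± 5.07 to 82.3 ± 5.46 CPM (log2 fold change -0.54), FOXO1 by 0.53 and FOXO4 by 0.53. MYC fell from 519 ± 9.29 to 332 ± 10.9 CPM (log2 fold change -0.64, adjusted p = 5.47e-08), and DDIT3, a stress factor also known as CHOP, rose by 0.87 (adjusted p = 7.63e-06). Opposite-strand exons cover 31.60% of the DDIT3 exon sequence, and 8.03% is shared with a gene on the same strand. DDIT3 had 147 to 269 reads per culture.

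**Figure D4:**
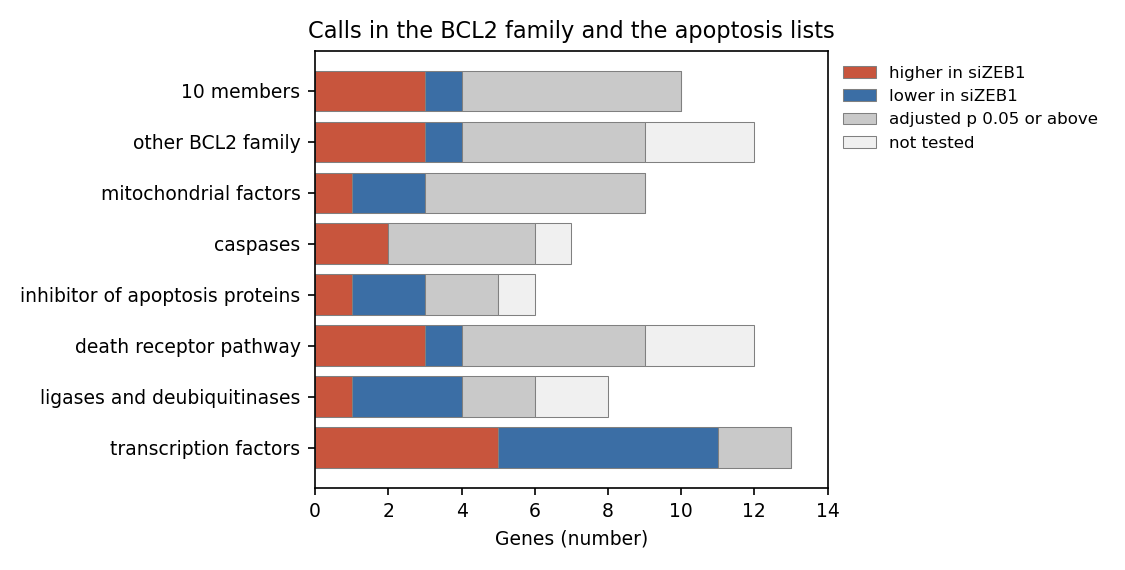
Number of genes higher, lower, not called (adjusted p-value 0.05 or above) and not tested in the 10 members, the 12 other family genes and the 6 apoptosis lists. Calls in both directions occur in each group except the caspases, where 2 were higher and 0 lower.

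BID was the called member with the largest change, and the genes whose log2 CPM followed it most closely over the 6 cultures were PACSIN3, CMIP and NDUFV3, each with a Pearson correlation of at least 0.998. Since 843 genes had a correlation above 0.95 with BID over these 6 libraries, which fall into 2 groups, this closeness is common in these data. The genes differ in size of change: the log2 fold changes of PACSIN3, CMIP and NDUFV3 were -0.66, -0.23 and -0.39.

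**Figure D5:**
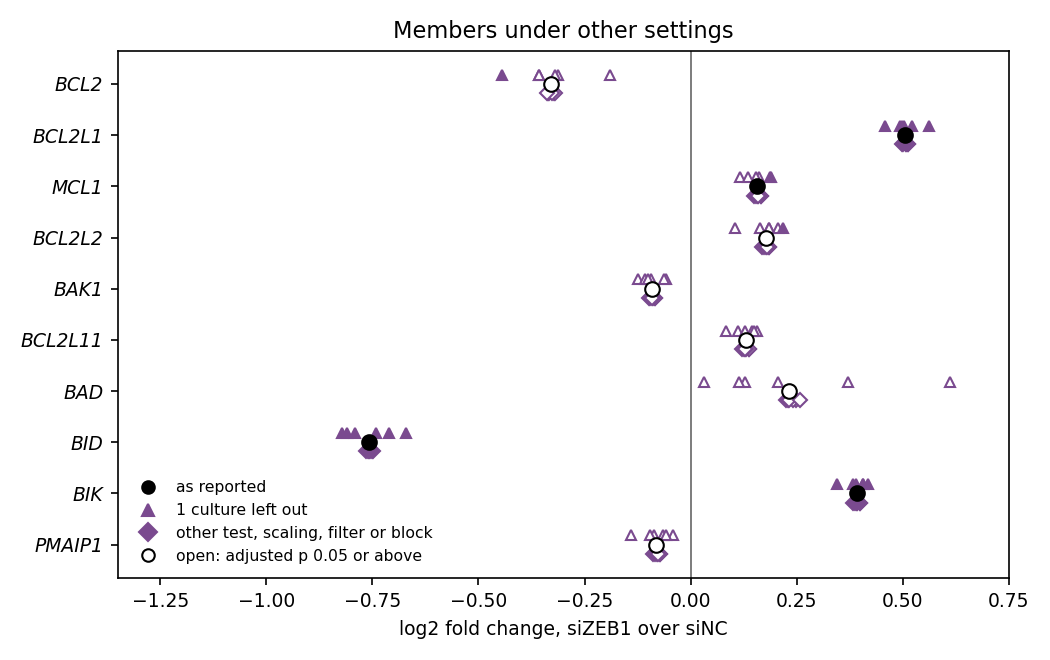
Log2 fold change of each member as reported (circles), with 1 culture left out (triangles) and with another test, scaling, filter or the replicate block (diamonds), filled where the adjusted p-value was under 0.05. BCL2L1, BID and BIK keep filled symbols throughout, whereas MCL1, BCL2 and BCL2L2 carry both kinds.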

How the data were processed

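RNA was extracted with TRIzol and sequenced on an Illumina instrument by the authors, in 3 biological replicates per group. The authors deposited whole-number read counts per gene, 1 file per culture, on hg38. The submitters' processing notes name Trimmomatic, HISAT2, SAMtools and featureCounts, and the annotation and strand setting are not given in the sources used here. Counts of the 6 files were joined by gene, filtered with filterByExpr of edgeR 4.0.16 (R 4.3.3), scaled by TMM, and siZEB1 was compared with siNC in edgeR's quasi-likelihood test, with p-values adjusted by Benjamini-Hochberg across the 14996 genes that passed. The biological coefficient of variation was 6.58%. The script was tested on simulated data. Intervals are 95% and come from this fit. CPM used TMM library sizes. Exonic lengths and positions came from GENCODE 29, where 31059 of 32029 genes matched by gene ID, and promoter windows from RefSeq, where 7 of the 10 members had an entry.

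The members and lists were chosen with earlier results of these data known. The text names all 10 members, ZEB1, the other family genes, up to 5 called genes with the largest absolute log2 fold change per pathway list, and the 3 genes most correlated with the called member of largest change, over log2 CPM with an offset of 0.5. A gene that met this rule is not reported here. Alternatives were DESeq2 1.42.0, median-of-ratios and total-count scaling, no filter, a minimum of 10 counts, a replicate block, each culture left out, and a threshold of 1.5-fold with an unadjusted p-value under 0.05, which is 1 of the rules the paper gives; its stricter p-value limit was not used here.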

Additional observations from a re-analysis of the deposited data

How the results depend on the processing

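Of 492 values, 41 named gene results under 12 alternatives each (other tests, scalings, filters, the replicate block and single cultures left out), 474 kept their direction and side of the threshold, 12 lost the call, 6 gained it and 0 reversed. BCL2L1, BID and BIK kept their calls under these 12. The MCL1 call was lost without the filter on low counts (log2 fold change 0.15) and with the replicate block (0.16, adjusted p = 0.137), and the cause was not tested. The block also ended the USP13 call (adjusted p = 0.0547). Whether replicate numbers pair the cultures is not given in the sources used here. The deviations of same-numbered cultures correlated at -0.078, -0.12 and -0.276, and those of differently numbered cultures at -0.12 to 0.21. With 3 cultures per group, these correlations cannot settle whether the cultures were paired. With 1 culture left out, the log2 fold change ran from 0.12 to 0.19 for MCL1, from -0.45 to -0.19 for BCL2 and from 0.10 to 0.22 for BCL2L2. Without length scaling the anti-apoptotic share was 72.9% with siNC and 77.5% with siZEB1. BAD, HRK and BNIP3 had no more than 54 reads per culture, and the part of depth in their missing calls was not tested. At a threshold of 1.5-fold with an unadjusted p-value under 0.05, 1081 genes were higher and 1402 lower in place of 2849 and 3186, 0 members were higher, and BCL2L1 (0.51), MCL1 (0.16) and BIK (0.39) were no longer called. At that threshold 7.21% of all genes were higher and 9.35% lower, and BID stayed lower. Higher were 0 of 9 other family genes, 0 of 9 mitochondrial factors, 0 of 9 death receptor genes and 0 of 6 ligases. Also higher were 1 of 6 caspases, 1 of 5 inhibitor of apoptosis genes and 1 of 13 transcription factors. Lower were 1 other family gene, 2 mitochondrial factors, 0 caspases and 0 death receptor genes. So were 1 inhibitor of apoptosis gene, 1 ligase and 1 transcription factor. With 1 culture left out, between 1 and 2 members, between 1 and 2 death receptor genes and between 2 and 5 ligases were called lower, the highest without siZEB1 replicate 3 for members and ligases and without siNC replicate 1 for death receptor genes. With the replicate block 2 members were higher and 1 lower, and 2289 genes were higher and 2679 lower.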
